A study of Sinocyclocheilus angustiporus and Sinocyclocheilus anophthalmus with 4 samples.

Results

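SOX genes encode transcription factors that bind DNA through an HMG box, the domain they share with the testis-determining factor SRY. The rows described here are those of the 2 deposited eye tables whose name contains SRY-box or SRY (sex determining region Y)-box. There were 9 such rows of 9649 in each table, or 9 of 9534 genes once rows with the same gene name had been joined. They are called here by zebrafish symbols read from the row names: sox2, sox3, sox4a, sox9a, sox9b, sox10, sox11a and sox13, and a further row named box 4 with no letter, called here the unlettered sox4 row. A letter is only as sure as the homology match behind the row name, and whether the unlettered row is another gene than sox4a is not known.

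RNA was sequenced from whole eyes of adult Sinocyclocheilus angustiporus, a surface fish, and adult Sinocyclocheilus anophthalmus, a cavefish. Each eye is represented by 1 library, no agent or genetic change is named in the labels, and 2 individuals were used per species without a statement on pooling. No test, error or p-value is therefore possible, and species, animal, library and sequencing instrument cannot be told apart. The brain libraries of the series were not analysed here.

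SOX proteins bend DNA and act on their targets together with partner proteins, and related members often replace one another. SOX2 and SOX3, of the B group, keep neural cells in a progenitor state, and in adult vertebrate retina SOX2 persists in Müller glia, the support cells that span the retina, and in some amacrine neurons. SOX8, SOX9 and SOX10, the E group, act in glia, cartilage and neural crest. SOX4 and SOX11, of the C group, act in neurons that are differentiating. The D group, SOX5, SOX6 and SOX13, forms dimers through a coiled coil, and in mouse SOX5 and SOX6 assist SOX9 in cartilage.

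Levels are RPKM as deposited, that is, read numbers divided by the length of the transcript and by all reads mapped, a scale meant for setting different genes side by side. The lengths used and the counting of reads shared by gene copies are not known, so comparisons between genes are only as sure as these. Paired values give the surface fish first. The 2 libraries carried eye transcripts: the rod pigment gene rhodopsin stood at 14606 RPKM in the surface species and 4884 RPKM in the cave species, and the lens crystallin gamma S1 at 4046 and 3107 RPKM. The median gene stood at 11.95 and 10.01 RPKM. All rows together summed to 684736 and 665574 RPKM, of which rhodopsin was a small part. The 2 most abundant genes held 53.4% and 62.8% of the table totals. Differences are given as log2 of (cavefish RPKM + 1) over (surface fish RPKM + 1), a scale that understates the change of low genes. On it the median of all genes was -0.27, so that a gene with the same RPKM in both eyes lay above most others. The 4 other scalings tried (quantile normalization, the median or a trimmed mean of ratios set to 0, and totals made equal after leaving out the 50 top genes) bring that median to between -0.02 and 0.00, and move most ratios up by a like amount; medians of lists are to be read against it. A gene is listed in the tables only where the larger of its values is at least 5 RPKM.

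By level, the listed SOX rows ranged from among the lowest genes of the tables to well above the median gene. In the surface fish they lay above 1.86% (sox11a) to 83.8% (sox4a) of genes. In the cavefish they lay above 1.11% (sox13) to 87.8% (sox4a). The 9 rows summed to 118.78 RPKM in the surface species and 149.12 RPKM in the cave species. In the surface fish the order from high to low was sox4a, sox10, sox3, sox2, sox9a, the unlettered sox4 row, sox9b, sox13 and sox11a. In the cavefish it was sox4a, sox10, sox2, sox9a, sox3, sox9b, the unlettered sox4 row, sox11a and sox13. The first and second places were thus the same in both eyes, and in the cavefish sox3 came after sox2 and sox9a. With 1 library per eye, there is no spread by which neighbours in these orders could be told apart.

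**Figure D1:**
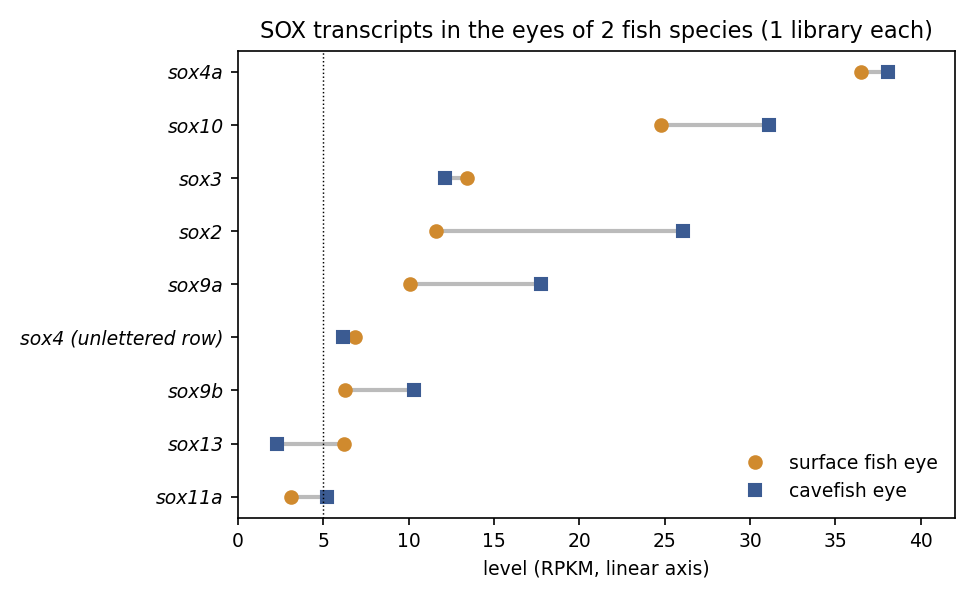
Level of each SOX row in the surface fish eye (circles) and the cavefish eye (squares), in RPKM on a linear axis, with 1 library per eye and no error. The dotted line marks 5 RPKM, which the larger value of every listed gene reaches; the longest bar is that of sox2, from 11.62 to 26.05 RPKM.

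Of the 9 rows, 1 was 2-fold or more higher in the cavefish, sox2, where 3.85% of all genes were, and 1 was at least 2-fold lower, sox13, where 10.2% of all genes were. The other 7 rows were within 2-fold. By sign, 6 rows were higher and 3 were lower in the cavefish eye, while 31.2% of all genes were higher. These counts hold sox11a, listed only through its cavefish value, and sox13, listed only through its surface fish value. The 5 RPKM limit thus set the direction of both. With a mean of both eyes of 5 RPKM or more, which leaves both out, 5 of 7 rows were higher and 0 were at least 2-fold lower. The median log2 ratio of all 9 rows was 0.32, and 8 of 9 lay above the median of all genes. With log2 ratios centred on that median, 2 rows were 2-fold or more higher, sox2 and sox9a, where 6.75% of all genes were, and 0 were lower, where 5.58% were. These counts describe the listed rows only, since a gene under 5 RPKM in both eyes has no row.

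**Figure D2:**
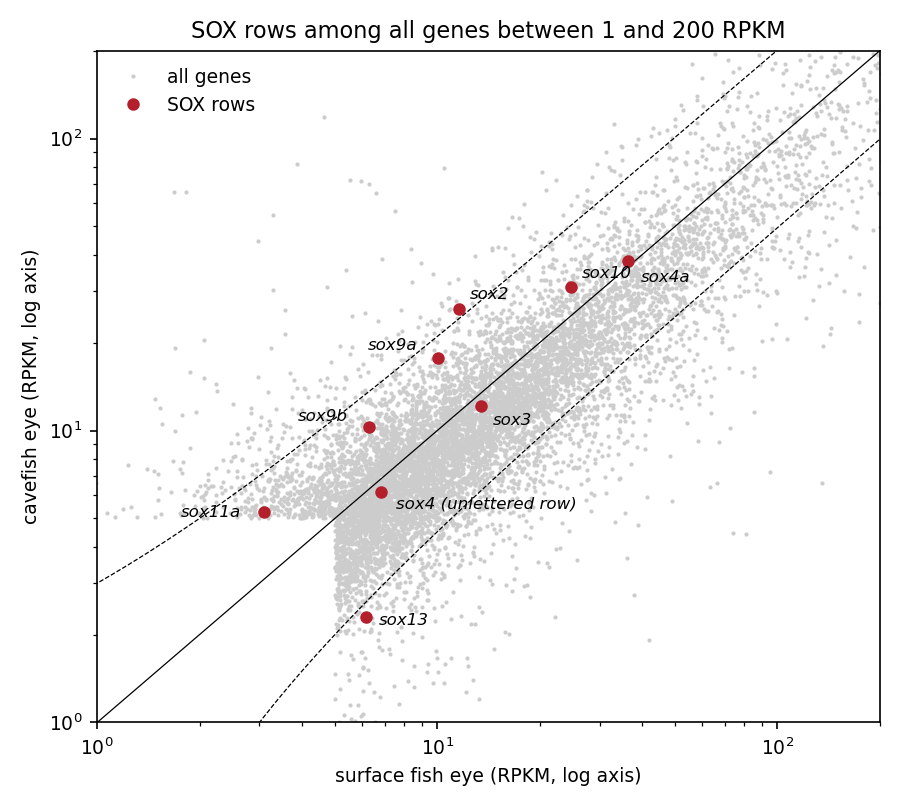
Level of all genes (grey points) and of the 9 SOX rows (red) in the surface fish eye (x axis) and the cavefish eye (y axis), in RPKM on log axes from 1 to 200. The solid line marks equal values and the dashed lines mark 2-fold on the log2(RPKM + 1) scale; sox2 lies above the upper dashed line, sox13 below the lower one and the other 7 rows between them, and the blank corner at lower left shows the 5 RPKM limit of the tables.

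Among the progenitor genes, sox2 differed most. It measured 11.62 RPKM in the surface species and 26.05 RPKM in the cave species, for a log2 ratio of 1.10. The surface fish value lay above 48.9% of the genes of its library and the cavefish value above 81.8%, and 3.13% of all genes had a larger ratio. Both values exceeded 5 RPKM, and of 7629 genes for which this held, 2.32% were 2-fold or more higher and 8.86% lower; of the 7 SOX rows among them, sox2 was higher and none was lower. With a pseudocount of 5 in place of 1 the log2 ratio of sox2 was 0.90, under 2-fold; with the 4 other ways of scaling the libraries it was 1.37 to 1.38.

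The close relative sox3 did not share this difference. It measured 13.41 RPKM in the surface species and 12.12 RPKM in the cave species, for a log2 ratio of -0.14, which turned to between 0.12 and 0.14 with the other scalings. The level of sox2 was 0.867 times that of sox3 in the surface fish eye and 2.15 times in the cavefish eye. This ratio is taken within a library, so a factor common to all genes of a library leaves it as it is. A difference between the species in how reads of a single gene were mapped would not cancel. The 2 B group genes thus changed places in the order, with sox3 the higher in the surface fish and sox2 the higher in the cavefish.

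The retinal progenitor list, which holds other transcription factors and cell cycle genes of dividing retinal cells, had 14 of 20 genes in the tables. Of these, 1 was at least 2-fold higher, 1 was lower, and the median log2 ratio was 0.30. Among all genes 3.85% were at least 2-fold higher and 10.2% lower. The counts of every list below are to be read beside these shares. The LIM homeobox gene lhx2b, which like sox2 is a gene of retinal progenitors and Müller glia, stood at 7.88 and 21.93 RPKM (log2 ratio 1.37). The retinal homeobox gene rx2, which in fish is also active in photoreceptors, stood at 50.80 and 23.88 RPKM (log2 ratio -1.06), and at -0.74 to -0.79 with the other scalings. The most abundant members were id1, an inhibitor of basic helix-loop-helix factors, at 72.14 and 129.08 RPKM, and the eye regulator pax6a at 53.71 and 81.76 RPKM. The id1 ratio of 0.83 was 1.10 to 1.13 with the other scalings, past 2-fold. The cell cycle genes pcna (9.86 and 12.15 RPKM) and ccnd1 (11.28 and 10.07 RPKM) were named after their values had been seen, and both were within 2-fold.

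Pax6 is a known DNA-binding partner of Sox2 in the lens. Per 100 RPKM of pax6a there were 21.6 RPKM of sox2 in the surface species and 31.9 RPKM in the cave species, and per 100 RPKM of pax6b 22.2 and 56.7 RPKM. The sox2 level was thus higher in the cavefish eye against either pax6 gene. Of all genes, 96.9% had a smaller log2 ratio than sox2, so this does not set the pax6 genes apart from other genes.

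The 3 E group rows that met the naming rule were each higher in the cavefish eye and within 2-fold on the deposited scale. The zebrafish genes sox9a and sox9b are duplicates of the ancestral Sox9, which acts in cartilage and, in mouse retina, in Müller glia; they are counted below with both. The sox9a row measured 10.06 RPKM in the surface species and 17.73 RPKM in the cave species, for a log2 ratio of 0.76, and 6.22% of all genes had a larger one. With the other scalings it was 1.02 to 1.04 and so just past 2-fold. The sox9b row stood at 6.29 and 10.29 RPKM (log2 ratio 0.63), and at 0.85 to 0.90 with the other scalings. The duplicates kept a similar proportion, with sox9a at 1.60 times sox9b in the surface fish eye and 1.72 times in the cavefish eye.

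The third E group row, sox10, drives the glial and pigment cell lineages of the neural crest and acts in the myelinating oligodendrocytes of the central nervous system. It measured 24.79 RPKM in the surface species and 31.12 RPKM in the cave species, for a log2 ratio of 0.32, which was 0.58 to 0.63 with the other scalings. It took 20.9% of the summed SOX level in both eyes. The rows named transcription factor sox-8 and sox-8-like fall outside the naming rule and were looked up after the others had been seen. Sox8 is the remaining E group gene of vertebrates. The sox-8 row stood at 5.62 and 3.66 RPKM, and the sox-8-like row at 4.56 and 5.46 RPKM. The former is listed only through its surface fish value and the latter only through its cavefish value. The 5 RPKM limit thus set the direction of each, and no direction is read from them.

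Müller glia markers gave no common direction, with 5 higher and 8 lower in the cavefish eye by sign on the deposited scale. On that scale 31.2% of all genes were higher. Of 17 listed genes 13 were in the tables, of which 0 were at least 2-fold higher and 3 were lower, and the median of -0.36 lay near that of all genes. Their summed level was 946.48 RPKM in the surface species and 783.36 RPKM in the cave species. The members with the highest value in either eye were the apolipoprotein gene apoeb (201.31 and 130.47 RPKM) and cahz, a carbonic anhydrase gene (133.36 and 59.77 RPKM, log2 ratio -1.14, and -0.84 to -0.87 with the other scalings). The cahz row is named only carbonic anhydrase, so it is not sure which such gene it is or that it marks glia. The other members past 2-fold were the glial glutamate transporter slc1a2a (34.02 and 9.51 RPKM, -1.74) and the glutamine synthase gene glulb (26.88 and 10.47 RPKM, -1.28). Their related genes were within 2-fold and were named after their values had been seen. The transporter gene slc1a2b, with the same glial name, stood at 70.87 and 78.70 RPKM (0.15, and 0.42 to 0.45 with the other scalings). The glutamine synthase gene glula stood at 113.75 and 72.51 RPKM (-0.64). The filament gene vim, abundant in both eyes at 129.53 and 122.64 RPKM, had a log2 ratio of -0.08, which turned to 0.19 to 0.21 with the other scalings; it was named after its values had been seen. The filament gene gfap, a glial marker that is also raised in reactive glia, stood at 71.15 and 124.74 RPKM, the highest log2 ratio of the list at 0.80, and 1.07 to 1.10 with the other scalings.

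Each SOX level was also set against every measured Müller glia marker within its own library, to see whether the proportion was higher or lower in the cavefish eye. For sox2 the proportion was higher against 13 of 13 markers, by 1.28 to 8.02 times, and for sox9a against 13 of 13, by 1.01 to 6.30 times. For sox9b it was higher against 12 of 13, from 0.933 to 5.85 times. For sox3 it was higher against 7 and lower against 6, so that no direction held. Among all genes, 96.9% had a smaller log2 ratio than sox2, 93.8% than sox9a, 91.6% than sox9b and 60.1% than sox3. The counts lay near these shares, so they do not set Müller glia markers apart from other genes. For each SOX row the lowest change in proportion was that against gfap, the marker with the highest ratio of the list. Against gfap, sox9a kept the same proportion (14.1 and 14.2 RPKM per 100 RPKM of gfap). Per 100 RPKM of the summed list there were 1.23 and 3.33 RPKM of sox2, 1.06 and 2.26 RPKM of sox9a, and 1.42 and 1.55 RPKM of sox3. In a bulk library, fewer cells of a type and less RNA per cell cannot be told apart, so these proportions do not say in which cells the transcripts lay.

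Genes of myelin and neural crest glia, some of them known targets of Sox10, had 7 of 19 members in the tables, of which 0 were past 2-fold in either direction. With each of the 4 other scalings 1 was, the myelin enzyme gene cnp (15.74 and 28.36 RPKM), at 1.08 to 1.11; it was named after its values had been seen, as was tyr below. Their median was 0.12, and they summed to 167.74 and 188.97 RPKM. By sign on the deposited scale 4 were higher in the cavefish eye and 3 were lower, while 31.2% of all genes were higher. The neural crest factor gene tfap2a stood at 46.14 and 50.22 RPKM, and the myelin basic protein gene mbpa at 37.33 and 43.04 RPKM. The lowest ratio was that of the peripheral myelin gene pmp22b, at 17.99 and 10.54 RPKM (-0.72), named after its values had been seen. The proportion of sox10 to each measured member within a library was higher in the cavefish eye for 5 and lower for 2, from 0.697 to 2.14 times. That count was below the share of all genes with a smaller log2 ratio than sox10, 83.5%. Per 100 RPKM of mbpa there were 66.4 and 72.3 RPKM of sox10, and per 100 RPKM of the peripheral myelin gene mpz 94.6 and 87.2 RPKM. Melanophore genes, of the pigment cell lineage that needs Sox10 in zebrafish, had 7 of 11 members in the tables, with a median of 0.35. One of them was at least 2-fold higher, the premelanosome gene pmelb at 10.75 and 28.53 RPKM. With the other scalings the pigment enzyme gene tyr, at 4.77 and 9.46 RPKM and listed only through its cavefish value, passed 2-fold too, at 1.10 to 1.13. The members with the highest value in either eye, the melanin synthesis gene dct (46.54 and 59.45 RPKM) and pmela (45.68 and 51.14 RPKM), were within 2-fold. In the surface fish eye tyrp1b was above both, at 48.94 RPKM, and it stood at 38.14 RPKM in the cavefish eye (log2 ratio -0.35). It was named after its values had been seen. By sign on the deposited scale 5 melanophore genes were higher in the cavefish eye and 2 were lower. Pigment epithelium of the retina makes transcripts of melanophore genes too.

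Among the neuronal SOX genes, sox4a was the most abundant SOX row of either eye and had close values in both. It measured 36.48 RPKM in the surface species and 38.10 RPKM in the cave species, for a log2 ratio of 0.06, which was 0.33 to 0.38 with the other scalings. In its libraries it lay above 83.8% and 87.8% of genes. The unlettered sox4 row was much lower, at 6.85 and 6.17 RPKM. Its log2 ratio of -0.13 turned to between 0.05 and 0.14 with the other scalings. The sox4a level was 5.33 times that of the unlettered row in the surface fish and 6.18 times in the cavefish.

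The sox11a row, of a gene that acts beside Sox4 in newborn neurons and in retinal ganglion cells of mouse, was the lowest SOX row of the surface fish eye. It measured 3.09 RPKM there and 5.24 RPKM in the cave species, for a log2 ratio of 0.61. It is in the tables only through its cavefish value, just above 5 RPKM, so it had to be higher in the cavefish to be listed with so low a surface fish value. With the other scalings its ratio was 0.77 to 0.88, within 2-fold.

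Neuron markers had 18 of 28 members in the tables, with a median of 0.05. With the other scalings 3 to 5 of them were past 2-fold. Of all genes, 6.23% to 6.75% were then at least 2-fold higher and 5.58% to 5.89% lower. The genes added were isl2a (2.83 and 6.05 RPKM), gap43 (5.23 and 9.54 RPKM) and pou4f2 (2.91 and 5.50 RPKM). Each was higher in the cavefish eye and was named after its values had been seen. Both isl2a and pou4f2 are listed only through their cavefish values, so the 5 RPKM limit set their direction. On the deposited scale 1 of the 18 markers was at least 2-fold higher, where 3.85% of all genes were, and 1 was lower, where 10.2% were. The higher one was stmn2b, a microtubule regulator gene of growing neurites, at 26.96 and 56.47 RPKM, and under 2-fold at 0.94 with a pseudocount of 5. The lower one was neurod1, a differentiation factor that in fish retina is active in photoreceptor precursors, at 186.57 and 71.55 RPKM. The next most abundant member was the synaptotagmin gene syt1a at 59.53 and 62.20 RPKM. Within the libraries, the proportion of sox4a was higher in the cavefish eye against 9 of the 18 markers and lower against the other 9, from 0.489 to 2.72 times. That of sox11a, which had to be higher in the cavefish to be listed, was higher against 14 and lower against 4. For comparison, 72.1% of all genes had a smaller log2 ratio than sox4a and 91.2% a smaller one than sox11a. Both counts were below these shares.

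Cartilage lines the sclera of fish eyes, and Sox9 with Sox5 and Sox6 switches on its collagen genes in mouse. No sox5 or sox6 row was matched, so the cartilage members were sox9a and sox9b alone, with a summed level of 16.35 RPKM in the surface species and 28.02 RPKM in the cave species. The cartilage list had 11 of 31 members in the tables, with a median of 0.36. Of these, 3 were at least 2-fold higher, where 3.85% of all genes were, and 1 was lower, where 10.2% were. The type II collagen gene col2a1a, a direct Sox9 target, stood at 32.37 and 77.91 RPKM (1.24). The gene col10a1 of mature cartilage and bone stood at 17.86 and 50.11 RPKM (1.44), and the type XI collagen gene col11a2 at 11.38 and 27.78 RPKM (1.22). The matrilin gene matn1, also a known Sox9 target in mouse, was the lower one, at 7.64 and 3.27 RPKM (-1.02). It is listed only through its surface fish value and was within 2-fold at -0.75 to -0.82 with the other scalings. The col11a1a gene was within 2-fold at 32.56 and 30.70 RPKM, as was ucmab at 37.93 and 39.75 RPKM; both were named after their values had been seen.

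Within the libraries, the proportion of sox9a was higher in the cavefish eye against 8 of the 11 cartilage markers and lower against 3, from 0.628 to 4.12 times. That of sox9b was higher against 7 and lower against 4. The sign thus depended on the marker: per 100 RPKM of col2a1a there were 31.1 and 22.8 RPKM of sox9a, while per 100 RPKM of the whole list there were 5.27 and 5.95 RPKM. By comparison, 93.8% of all genes had a smaller log2 ratio than sox9a and 91.6% a smaller one than sox9b. The counts of 8 and 7 of 11 were below these shares. How much of the sox9 level came from glia and how much from cartilage was not tested.

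The D group row sox13 was the one SOX row whose log2 ratio lay below the median log2 ratio of all genes. It measured 6.19 RPKM in the surface species and 2.30 RPKM in the cave species, for a log2 ratio of -1.12, and 7.69% of all genes had a smaller one. It is in the tables only through its surface fish value, so a low cavefish value could be listed for it. With the 4 other scalings the ratio was -0.85 to -0.98 and with a pseudocount of 5 it was -0.62, under 2-fold in each case. Its share of the summed SOX level was 5.21% in the surface fish and 1.54% in the cavefish.

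**Figure D3:**
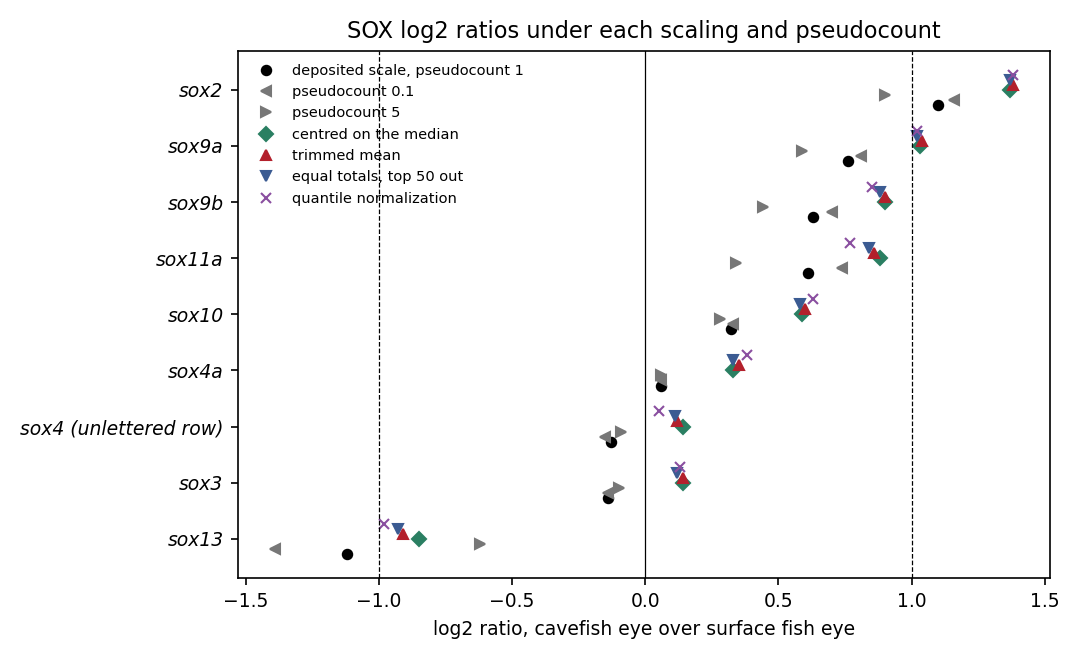
Log2 ratio of each SOX row, cavefish eye over surface fish eye, on the deposited scale with a pseudocount of 1 (black circles), with other pseudocounts (grey) and with 4 other scalings of the libraries (coloured). Dashed lines mark 2-fold: sox2 lies past it except with a pseudocount of 5, sox9a crosses it with the other scalings, and sox13 comes inside it with them.

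By role, the 5 progenitor and glial rows (sox2, sox3, sox9a, sox9b and sox10) had a median log2 ratio of 0.63 and ranged from -0.14 to 1.10. The 3 neuronal rows ranged from -0.13 to 0.61, with a median of 0.06. The 0.61 is that of sox11a, whose direction was set by the 5 RPKM limit, while sox4a stood at 0.06. With a mean of both eyes of 5 RPKM or more, which leaves sox11a out, the neuronal median was -0.03. The 2 cartilage rows, which are also glial rows, stood at 0.63 and 0.76. The ranges of the progenitor and glial rows and of the neuronal rows overlapped, and with 1 library per eye the difference between the roles was not tested. As shares of the summed SOX level, which a common factor per library leaves as they are, the progenitor and glial rows went from 55.7% in the surface fish to 65.3% in the cavefish, and the neuronal rows from 39.1% to 33.2%. Without the sox9 rows the progenitor and glial share was 41.9% and 46.5%. Most of the gain in share lay with sox2, which took 9.78% of the summed level in the surface fish and 17.5% in the cavefish, while sox4a took 30.7% and 25.5% and sox3 took 11.3% and 8.13%.

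Notch signalling keeps retinal progenitors and Müller glia from differentiating and acts beside Sox2 there. Its list had 12 of 24 genes in the tables, with a median of -0.21, near the -0.27 of all genes. By sign on the deposited scale 5 were higher and 7 lower, while 31.2% of all genes were higher. Of these, 2 were at least 2-fold higher, where 3.85% of all genes were, and 0 were lower, where 10.2% were. The 2 past 2-fold were Hairy/E(spl)-type repressor genes that Notch switches on: her6, at 9.82 and 23.02 RPKM, and hey1, at 2.34 and 6.66 RPKM. The hey1 gene is listed only through its cavefish value, so the 5 RPKM limit set its direction. With a pseudocount of 5 the log2 ratios of her6 and hey1 were 0.92 and 0.67, under 2-fold. The related her9, named after its values had been seen, stood at 7.94 and 8.69 RPKM (0.12). The receptor notch3 stood at 53.21 and 30.98 RPKM and mib1, which activates Notch ligands, at 37.00 and 34.53 RPKM, both within 2-fold.

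No F group row, such as sox7, sox17 or sox18 of blood vessels, was matched. Vessel markers had 13 of 24 members in the tables, with a median of -0.48. Of these, 0 were at least 2-fold higher, where 3.85% of all genes were, and 3 were lower, where 10.2% were. These 3 were the secreted factor egfl7 (174.32 and 23.59 RPKM), the angiopoietin receptor gene tek (12.99 and 4.41 RPKM) and the adhesion gene esama (10.45 and 3.16 RPKM), the last pair under 2-fold with a pseudocount of 5, at -0.93 and -0.92. Both tek and esama are under 5 RPKM in the cavefish eye and so are listed only through their surface fish values. The vascular growth factor receptor kdrl stood at 28.72 and 22.11 RPKM.

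Lists of other tissues in a dissected eye differed between the eyes by larger factors, in summed level, than the SOX rows did. Skeletal muscle markers had 4 of 5 measured genes at least 2-fold higher and summed to 607.36 and 1802 RPKM. Skin and cornea markers had 5 of 8 lower and summed to 1232 and 285.29 RPKM, and erythrocyte markers had 4 of 6 lower and summed to 1736 and 529.1 RPKM. Among all genes 3.85% were at least 2-fold higher and 10.2% lower. None of these markers was at 0 in either eye, but neither was any other gene in the tables. Muscle examples were ckmb (175.23 and 727.56 RPKM), ckma (215.08 and 453.69 RPKM) and mb (53.48 and 292.37 RPKM); epithelial ones were krt5 (660.20 and 53.26 RPKM), krt4 (143.35 and 22.38 RPKM) and dspa (96.13 and 20.64 RPKM). The globin genes hbaa1 (1094 and 249.5 RPKM) and hbba1 (540.38 and 236.58 RPKM) and the anion exchanger gene slc4a1a (27.90 and 8.55 RPKM) were lower, hbba1 by less than 2-fold with the other scalings, at -0.90 to -0.93. The part of these tissues in the SOX differences was not tested.

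**Figure D4:**
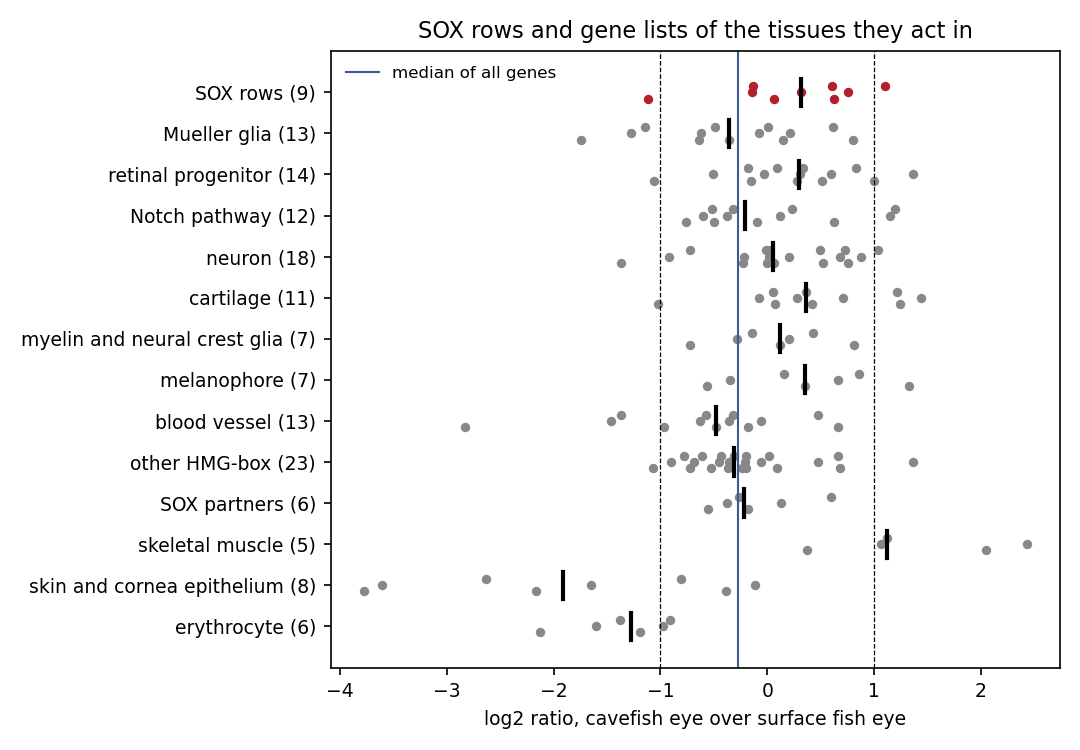
Log2 ratio, cavefish eye over surface fish eye, of the 9 SOX rows (red) and of the members of 13 gene lists (grey), 1 point per gene, with the number of genes in parentheses. Black bars are medians, the blue line is the median of all genes at -0.27 and dashed lines mark 2-fold; the SOX median of 0.32 lies near those of the retinal progenitor (0.30), melanophore (0.35) and cartilage (0.36) lists.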

How the data were processed

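Per the file headers, each eye table holds RPKM values that the authors deposited, on 9649 rows with names given by homology. The submitters' processing notes name Bowtie 0.12.2 without saying what it was used for. The sources used here give neither the reference nor the lengths used, nor how reads shared by several gene copies were counted. The depth is unknown, so no counting error is given. Sinocyclocheilus fish are polyploid, and a row may stand for several copies.

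Rows with 1 name, and further rows of a listed gene, were reduced to the row with the largest sum, which left 9534 genes. Log2 ratios used a pseudocount of 1; 2-fold is a log2 ratio of 1 or -1. No test was made, with 1 library a group. Alternatives were pseudocounts of 0.1 and 5, 4 scalings (median centring, a trimmed mean, equal totals without the 50 most abundant genes, and quantile normalization), a mean of 5 RPKM or more, summed rows and 4-fold. The computation was tested on simulated data with planted changes far larger than 2-fold and little noise. That checks the code and does not measure how sure a call near 2-fold is.

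Members and lists were chosen with earlier results of these data known. All SOX rows were named, and of each list the 2 most abundant members and the 3 most abundant past 2-fold, by the larger value of the 2 eyes; others were named after their values were seen. List symbols were matched to rows by descriptive name, for some, such as cahz and ucmab, from a name without the letter. Python 3.11.15, numpy 2.4.6, pandas 2.3.3 and matplotlib 3.10.9 were used.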

Additional observations from a re-analysis of the deposited data

How the results depend on the processing

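With 1 library per eye, nothing measures variation between animals, and the depth behind each value is unknown. No paired analysis was possible because the groups share no replicate numbers beyond the single library of each. The sign of sox3 and of the unlettered sox4 row depends on the scaling, and the size of the ratio of low rows such as sox11a and sox13 depends on the pseudocount. The number of SOX rows at least 2-fold higher, 1 as reported, was 2 with each of the 4 other scalings (sox2 and sox9a) and 0 with a pseudocount of 5 or a threshold of 4-fold. The number lower, 1 as reported, was 0 under each of those and with a mean of 5 RPKM or more, which leaves out sox13 and sox11a. For all genes, 367 were higher and 973 lower as reported, so that 27.4% of calls were higher. The counts were 644 and 532 with median centring (54.8% higher), 640 and 549 with the trimmed mean, 618 and 562 with equal totals, 594 and 558 with quantile normalization, 173 and 516 with a pseudocount of 5, and 58 and 124 at 4-fold. The neuronal median was -0.03 with a mean of 5 RPKM or more, where sox11a drops out. With the D group in place of the role, the cartilage median is the ratio of sox13, -1.12. Of 221 list values under alternatives, 181 changed little and 40 did not; for a count this means within 1.5 times, and for a median log2 ratio a shift of less than a 1.5-fold change in the ratio itself with no change of sign. The cause was not tested.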

Other observations

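Other proteins also carry an HMG box, among them the abundant chromatin proteins of the HMGB family and the TCF and LEF factors of Wnt signalling. Of 29 listed genes 23 were in the tables, and their median log2 ratio was -0.31, near the -0.27 of all genes and below the 0.32 of the SOX rows. On the deposited scale 17 of them were lower and 6 higher in the cavefish eye, a share near the 31.2% of all genes that were higher. The most abundant were hmgb2a (139.64 RPKM in the surface species and 74.24 RPKM in the cave species) and hmgb1a (75.54 and 55.71 RPKM), both within 2-fold. Past 2-fold were lef1, at 2.79 and 8.78 RPKM and listed only through its cavefish value, and hmg20b, at 10.39 and 4.44 RPKM and listed only through its surface fish value. The first came under 2-fold with a pseudocount of 5 (0.82), the second with that (-0.71) and with the other scalings (-0.79 to -0.85). The TCF genes tcf7 (2.92 and 5.20 RPKM) and tcf7l1a (3.26 and 5.81 RPKM) are also listed only through the cavefish eye.

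Known partners and cofactors of SOX proteins had 6 of 12 genes in the tables, none of them past 2-fold, with a median of -0.22. The nuclear import receptor gene kpnb1, which carries SOX proteins into the nucleus, stood at 113.0 and 76.70 RPKM, and the chromatin remodeller chd7, named after its value was seen, at 58.94 and 49.07 RPKM.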
